A study of Rattus norvegicus with 2 samples.

Results

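The subunits of the respiratory chain and of ATP synthase were followed, complex by complex, in dissociated lung cells of control rats and of rats exposed to a gas explosion. Members were all gene symbols that begin with Nduf and one of the letters a, b, c, s or v with a number (complex I), Sdha to Sdhd (complex II), Uqcr (complex III), Cox4 to Cox8 (complex IV) or Atp5 (ATP synthase), without symbols that hold -ps. The rule found 87 of the 42172 genes listed: 37 of complex I, 4 of complex II, 8 of complex III, 20 of complex IV and 18 of ATP synthase. Ndufa4 and Ndufa4l2 were counted with complex IV, to which the NDUFA4 protein belongs. Of the 87, 85 had at least 1 unique molecular identifier (UMI, the count of 1 captured mRNA molecule) in each library; Cox8c and Cox7b2 had none in either. The 13 subunits encoded by mitochondrial DNA were not analysed here, so every value below is for subunits encoded in the nucleus.

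The respiratory chain sits in the inner mitochondrial membrane. Complex I takes electrons from NADH and complex II, which is also the succinate dehydrogenase of the citric acid cycle, takes them from succinate; both pass them through coenzyme Q to complex III, and cytochrome c carries them on to complex IV, where oxygen is reduced. Complexes I, III and IV pump protons, complex II does not, and ATP synthase makes ATP from the proton gradient. In the lung, ciliated cells, whose beating uses ATP, are known as rich in mitochondria.

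The study held 1 library of control lung and 1 of lung after the explosion, from rats kept under specific pathogen-free conditions. The labels gave no strain, sex, age, number of animals or time after the explosion. Lungs of both groups were digested with collagenase IV, papain and DNase I, cleared of red cells and of dead cells, and made into 3′ droplet libraries. With 1 library per group there is no replicate, no test was made, and the intervals below cover counting error only; a difference between the libraries and a difference between the animals cannot be told apart.

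The libraries stood apart in depth. The control matrix held 21117 barcodes with a median of 4917 UMIs, and the explosion matrix 12642 barcodes with a median of 538.5; the shallowest barcodes held 500 and 231 UMIs. The labels state a target of at least 5000 cells per library. After filters, 19231 control and 11845 explosion cells were kept, and 85 barcodes were shared by the libraries. Cells were clustered without the member genes, and 13 classes named by their markers had at least 50 cells in both libraries. The 8 with at least 200 in both were compared: B-like, NK-like, T-like, ciliated-like, macrophage-like, mesothelial-like, nonclassical monocyte-like and secretory-like cells. In these 8 the pre-ribosomal RNA gene Rn45s stood at 64.6 to 246 UMIs per 1e+06 UMIs of the class (CPM) in control and at 1918 to 5028 CPM in explosion cells, and ribosomal protein genes made up 4.86% to 32.6% and 2.79% to 12.7% of UMIs; their part in the results below was not tested. In 7 of the 8, all but NK-like, most control and most explosion cells lay in different clusters: B-like, T-like, ciliated-like, macrophage-like, mesothelial-like, nonclassical monocyte-like and secretory-like cells.

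In all 13 classes the summed mRNA of complexes I, III and IV was lower in the explosion library, that of ATP synthase was lower by less, and that of complex II was nearest to its control level. Over the 8 compared classes, the summed CPM of the 37 complex I genes was 2.28-fold lower by the median, with classes from 1.62-fold to 3.31-fold. Complex III was 2.51-fold lower (1.79-fold to 3.54-fold), complex IV 2.57-fold lower (1.91-fold to 3.52-fold) and ATP synthase 1.84-fold lower (1.41-fold to 2.44-fold). Complex II was 1.15-fold lower by the median; its ratio of explosion to control lay below 1 with its whole 95% interval in 4 classes and its interval held 1 in the other 4. For complexes I, III and IV and ATP synthase, the intervals of all 8 classes lay below 1.

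In macrophage-like cells, complex I stood at 7030 CPM in control and 2844 CPM in explosion cells, and complex IV at 8283 and 3371 CPM. In the same cells complex II stood at 476 and 456 CPM, a ratio of 0.957 (95% interval 0.898 to 1.02). Over all their cells, ciliated-like cells had the lowest ratios of complexes I, III and IV among the 8: complex I stood at 7323 and 2213 CPM, a ratio of 0.302 (0.277 to 0.329), and complex II at 366 and 283 CPM, a ratio of 0.773 (0.597 to 0.986). This rank was not kept among shallower cells: the complex I ratio of ciliated-like cells was 0.526 (0.476 to 0.582) in the cluster that both libraries share and 0.657 (0.530 to 0.816) under 1000 UMIs, above the 0.337 of mesothelial-like cells and their 0.374 under 1000 UMIs. NK-like cells had the highest complex I ratio over all cells, 0.619 (0.574 to 0.667), from 4255 and 2634 CPM, and their complex II stood at 287 and 314 CPM. In 13 of 13 classes complex II had the highest ratio and ATP synthase the next. Among all UMIs of the members, the share of complex II was larger in the explosion library in 13 of 13 classes (1.27% to 1.85% in control, 2.26% to 4.06% after the explosion), and so was that of ATP synthase (28.1% to 32.1% and 34.0% to 40.1%).

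**Figure D1:**
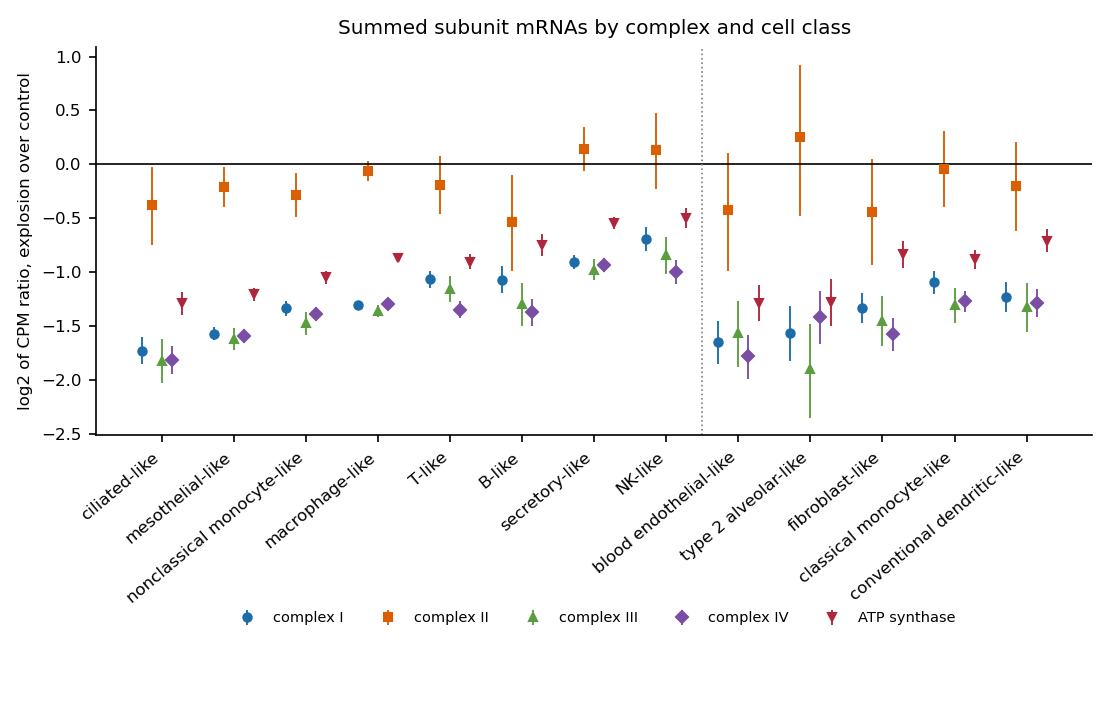
Each point is the log2 of the ratio of summed CPM (explosion over control) of 1 complex in 1 cell class, with its exact 95% counting interval; the y axis is in log2 units, the line at 0 marks equal CPM, and classes right of the dotted line had 50 to 199 cells in at least 1 library. Complex II lies highest in each of the 13 classes, and complexes I, III and IV lie below 0 throughout.

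CPM is a share of all UMIs, and the median gene did not stay at 0: over the genes tested, the median log2 ratio was between 0.14 (ciliated-like) and 1.15 (secretory-like). Relative to the median gene of the class, the median log2 difference was -1.72 for complex I, -0.65 for complex II, -1.82 for complex III, -1.91 for complex IV and -1.41 for ATP synthase. Complex II was then below the median gene in 8 of 8 classes, with its whole interval in 7. In secretory-like cells 57.0% of control and 39.6% of explosion UMIs came from Scgb1a1, a club cell secretoglobin, and CPM of all other genes there is a share of the same total. These cells gave the smallest fall of complex IV, 1.91-fold. With Scgb1a1 left out of the totals, their complex IV stood at 7835 CPM in control and 2924 CPM in explosion cells. Their complex II then stood at 412 and 324 CPM, against 177 and 196 CPM with it. Scgb1a1 also made up 8.27% of control and 12.8% of explosion UMIs of ciliated-like cells, where its source was not tested. Without it their complex I stood at 7984 and 2538 CPM.

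Counted gene by gene, a member was tested in a class when the mean CPM of the 2 libraries was at least 50. This gave 560 member-by-class values, of which 355 (63.4%) were at least 2-fold lower in the explosion library; the same rule called 12.8% of all 27778 gene-by-class values. At least 2-fold higher were 2 member values (0.357%), against 28.1% of all values: Atp5f1b in NK-like cells, where 24.1% of all genes were, and Atp5f1a in secretory-like cells, where 53.5% were. By class, 83.6% of the members tested were at least 2-fold lower in ciliated-like cells (19.4% of all genes), 78.7% in mesothelial-like (16.7%), 74.6% in nonclassical monocyte-like (13.2%), 70.8% in macrophage-like (12.6%), 64.2% in B-like (10.7%), 59.7% in T-like (10.3%), 44.1% in secretory-like (7.87%) and 26.8% in NK-like cells (8.13%). Of the 87 members, 58 passed the filter in all 8 classes, 68 in at least 6, and 11 in none.

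Complex I, the NADH dehydrogenase, had 27 members that passed in at least 6 classes, and the median log2 ratio of each lay below 0. Ndufb5, a subunit of the membrane arm, was lowest, at 130 to 256 CPM in control and 24.5 to 66.3 CPM in explosion cells. It was 4.02-fold lower by the median and at least 2-fold lower in 8 of 8 classes. Ndufa13, an accessory subunit, stood at 195 to 422 CPM in control and 51.8 to 101 CPM after the explosion, and was 8.16-fold lower in ciliated-like cells (906 and 13 UMIs, interval 4.75 to 15.4). Ndufa1, the complex I member with the most control UMIs, was 2.60-fold lower by the median. At the other end of these 27, Ndufb1 was 1.20-fold lower by the median, with intervals below 1 in 4 of 8 classes. Ndufa10, an accessory subunit that passed in only 4 classes, had a median log2 ratio of 0.24, from -0.16 to 0.44. Each of its intervals held 1, and it was below the median gene in 4 of 4 classes. Among the 7 core subunits encoded in the nucleus, which include those that hold the flavin and the iron-sulfur clusters, 22 of 38 values were at least 2-fold lower and none was 2-fold higher; the iron-sulfur subunits Ndufs7 and Ndufs8 had median log2 ratios of -1.55 and -1.17, and the flavin subunit Ndufv1, which passed in 4 classes, had -0.51. The core subunits summed were 2.35-fold lower by the median and the supernumerary subunits 2.28-fold lower. Ndufs6 had 81 control and 7 explosion UMIs, and Ndufs1 passed in no class.

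Complex II has only 4 subunits, and their values differed in direction. Sdhb, the iron-sulfur subunit, stood at 190 CPM in control and 95.1 CPM in explosion macrophage-like cells, and at 131 and 61.4 CPM in mesothelial-like cells; its median log2 ratio was -0.97, with intervals below 1 in 5 of 7 classes. Sdhc, a membrane anchor that binds heme, stood at 110 CPM in control and 167 CPM in explosion macrophage-like cells, a ratio of 1.52 (1.37 to 1.69), and its values were above control in all 7 compared classes where it passed. Outside these it was below control in conventional dendritic-like, fibroblast-like and type 2 alveolar-like cells and above it in blood endothelial-like and classical monocyte-like cells. The other intervals of Sdhc, in classes where it passed, held 1. Sdhd, the other anchor, had a median log2 ratio of 0.06, from -0.43 to 0.34, and each of its 7 intervals held 1. Sdha, the flavin subunit with the catalytic site, had a median log2 ratio of -0.25, from -0.92 in B-like (81 and 12 UMIs) to 0.51 in NK-like cells (37 and 25 UMIs). Relative to the median gene of the class, Sdhc was lower in 6 of 7 classes and Sdhd in 7 of 7.

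In complex III the large core proteins and the small subunits differed. Uqcrc1 and Uqcrc2, the core proteins on the matrix side, were 1.44-fold and 1.40-fold lower by the median, and neither was 2-fold lower in any compared class. Outside these, Uqcrc2 was 3.81-fold lower in blood endothelial-like cells (36 and 3 UMIs). Uqcrc2 stood at 56.3 to 110 CPM in control and 46.0 to 86.6 CPM after the explosion, so that the ranges over classes overlapped. The Rieske iron-sulfur protein Uqcrfs1 was 2.32-fold lower by the median. The 5 small subunits (Uqcrb, Uqcrh, Uqcrq, Uqcr10 and Uqcr11) were lower in 40 of 40 values and at least 2-fold lower in 34. Uqcr10 was at 341 to 745 CPM in control and 142 to 236 CPM after the explosion. Uqcr11 was 4.92-fold lower in ciliated-like cells (1092 and 26 UMIs, interval 3.34 to 7.56). The grouping of subunits by role within a complex was made after values were seen and is a description only.

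In complex IV, which reduces oxygen, Cox7a2 had the lowest median of the 68 members that passed in at least 6 classes. It stood at 107 to 313 CPM in control and 11.9 to 61.3 CPM after the explosion. In macrophage-like cells it was at 313 and 61.3 CPM, 5.10-fold lower (4.31 to 6.08). In ciliated-like cells 490 control UMIs faced 3 explosion UMIs, a ratio of 0.0523 (0.0107 to 0.154). Cox7a2l, its relative that takes part in joining complexes III and IV into supercomplexes, was 1.48-fold lower by the median and stood at 142 and 152 CPM in secretory-like cells, a ratio of 1.07 (0.911 to 1.25). Relative to the median gene of the class, Cox7a2l was lower in 8 of 8 classes, secretory-like cells included. Cox8a was at 378 to 912 CPM in control and 122 to 236 CPM after the explosion and was at least 2-fold lower in 8 of 8 classes. Cox4i1, the member of complex IV with the most control UMIs, was 2.71-fold lower by the median and Cox6a1 1.98-fold. The muscle and tissue-restricted forms were near the floor: Cox8b had 5 and 4 UMIs, Ndufa4l2 had 7 and 1, Cox4i2 had 17 and 3, and Cox6a2 had 100 and 3, of which 16 control UMIs (21.1 CPM) lay in conventional dendritic-like cells.

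Among the 74 members with at least 30 control UMIs in each of the 8 classes, Ndufa4 varied most between control classes. With Scgb1a1 left out of the totals, it stood at 1495 CPM in ciliated-like and 1188 CPM in secretory-like cells and at 160 CPM in NK-like cells, a 9.34-fold spread, whereas the median spread of the 74 was 2.08-fold. In the explosion library secretory-like (373 CPM) and ciliated-like cells (352 CPM) were again highest and nonclassical monocyte-like cells lowest (50.5 CPM). Cox5a had its highest control value in macrophage-like cells (718 CPM), and Ndufv3 did too (406 CPM).

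Cox6b2 was found mainly in 1 cell class. Cox6b1 and Cox6b2 encode alternative forms of a small subunit on the outer side of complex IV, and Cox6b2 is known as the form of testis. Mesothelial-like cells, named by Msln, Wt1, Upk3b, Lrrn4 and 7 other markers, held 1404 of the 1574 control UMIs of Cox6b2 (89.2%) and 108 of 133 after the explosion (81.2%), with 6.76% and 8.70% of the cells. The level there was 382 CPM in control and 118 CPM after the explosion. Macrophage-like cells had 1.01 and 0.902 CPM, secretory-like cells 1.41 and 2.84 CPM, and the highest value elsewhere among the 13 classes was 24.2 CPM (7 UMIs) in explosion fibroblast-like cells. In the control library 49.4% of mesothelial-like cells (median 2033.5 UMIs) had a Cox6b2 UMI, against 0.617% of the deeper macrophage-like cells (median 5796 UMIs); after the explosion the shares were 9.81% (median 792 UMIs) and 0.101% (median 1121 UMIs).

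Cox6b2 made up 35.2% (exact interval 33.7% to 36.7%) of the Cox6b1 and Cox6b2 UMIs of control mesothelial-like cells and 41.5% (35.5% to 47.8%) after the explosion, so the 2 intervals overlapped. Cox6b1 in the same class was at 704 and 167 CPM, 4.22-fold lower (3.58 to 5.01), and Cox6b2 was 3.23-fold lower. Most explosion cells of the class, 986, lay in cluster 20, which held only 43 control cells. Within cluster 20 Cox6b2 was at 201 CPM in control (10 UMIs) and 113 CPM in explosion cells (98 UMIs). Cox6b1 was there at 481 CPM (24 UMIs) and 168 CPM (146 UMIs). Each of the 4 mesothelial-like control clusters held Cox6b2, from 161 CPM in cluster 11 to 826 CPM in cluster 26, a group of 112 control cells led by Ahsp, Cryab, Stmn2 and Cox6b2; without cluster 26 the control level was 361 CPM. To show the paired genes, the 250 bases before the start of each are given 5′ to 3′ from RefSeq (build GRCr8), with Cox6b1 at chr1:95009853-95010102 on the minus strand and Cox6b2 at chr1:78122621-78122870 on the plus strand; none of the 4 motifs described further on was found in either.
Cox6b1: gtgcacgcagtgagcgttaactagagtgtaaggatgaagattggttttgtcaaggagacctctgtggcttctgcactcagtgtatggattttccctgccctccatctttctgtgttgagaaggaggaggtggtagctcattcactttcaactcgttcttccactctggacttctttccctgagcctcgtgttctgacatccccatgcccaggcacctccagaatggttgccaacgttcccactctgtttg
Cox6b2: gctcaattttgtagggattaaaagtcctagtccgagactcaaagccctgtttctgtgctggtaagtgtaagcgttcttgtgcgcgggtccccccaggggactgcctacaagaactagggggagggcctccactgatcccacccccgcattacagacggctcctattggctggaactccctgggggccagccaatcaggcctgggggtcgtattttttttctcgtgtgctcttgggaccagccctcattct

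**Figure D2:**
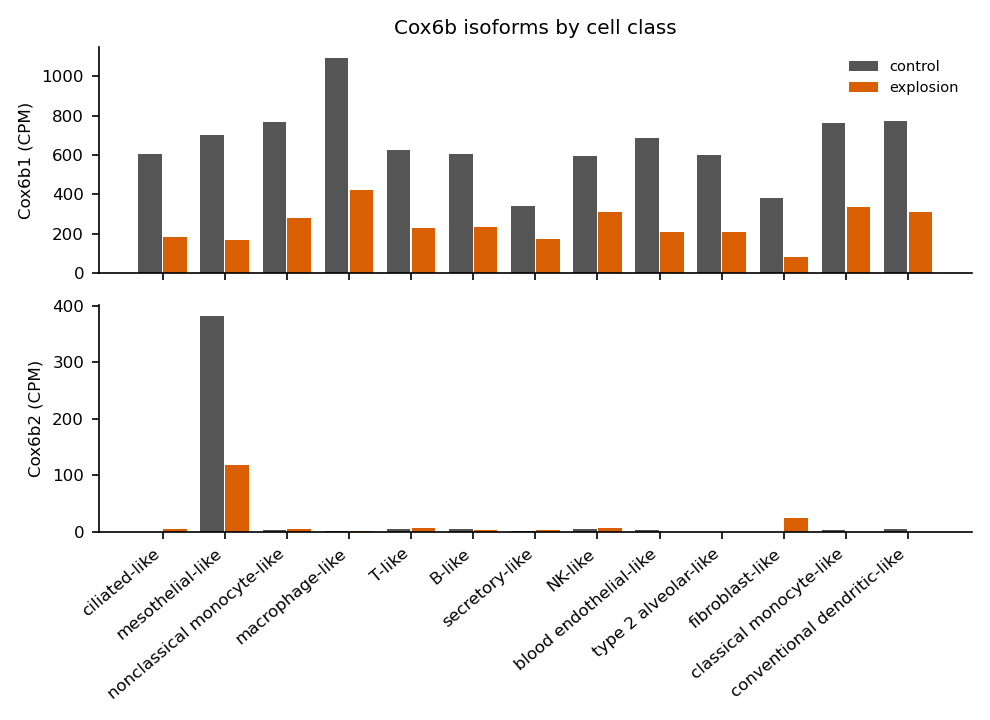
Bars give the CPM (linear axis from 0) of Cox6b1 above and Cox6b2 below in 13 cell classes, in grey for the control and in orange for the explosion library. Cox6b2 is at 382 and 118 CPM in mesothelial-like cells and at most 24.2 CPM in any other class shown, while Cox6b1 is present in all.

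Of the 68 members that passed in at least 6 classes, 5 had a median above the control level, and ATP synthase held 3 of them; the other two were Sdhc and Sdhd of complex II. The catalytic head is a ring of α and β subunits, encoded by Atp5f1a and Atp5f1b. Atp5f1b stood at 193 to 462 CPM in control and 336 to 713 CPM after the explosion, above control in 8 of 8 classes with intervals above 1 in 7. In NK-like cells it was at 264 and 579 CPM, a ratio of 2.19 (1.79 to 2.70), and in ciliated-like cells at 438 and 470 CPM, a ratio of 1.07 (0.879 to 1.30). Atp5f1a was at 96.3 and 193 CPM in secretory-like cells, a ratio of 2.00 (1.73 to 2.30), and above control in 8 of 8 classes with intervals above 1 in 7. These directions depend on the scale: relative to the median gene of the class, the median log2 differences were -0.07 for Atp5f1a and -0.03 for Atp5f1b, each below the median gene in 5 of 8 classes.

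The other parts of the head did not share this. Atp5f1e, the smallest subunit of the central stalk and the ATP synthase member with the most control UMIs, stood at 482 to 1097 CPM in control and 194 to 308 CPM after the explosion and was 3.42-fold lower by the median. Atp5f1c and Atp5f1d, also of the central stalk, were 2.02-fold and 2.27-fold lower. The 4 subunits of the peripheral stalk (Atp5pb, Atp5pd, Atp5pf and Atp5po), which hold the head still, were lower in 32 of 32 values and at least 2-fold lower in 28. Of the small membrane subunits, Atp5mk was 4.07-fold lower by the median, from 83.9 to 282 CPM in control to 24.6 to 55.7 CPM after the explosion. Atp5if1, the inhibitor that stops the enzyme from hydrolysing ATP, was 1.86-fold lower, with intervals below 1 in 7 of 8 classes.

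**Figure D3:**
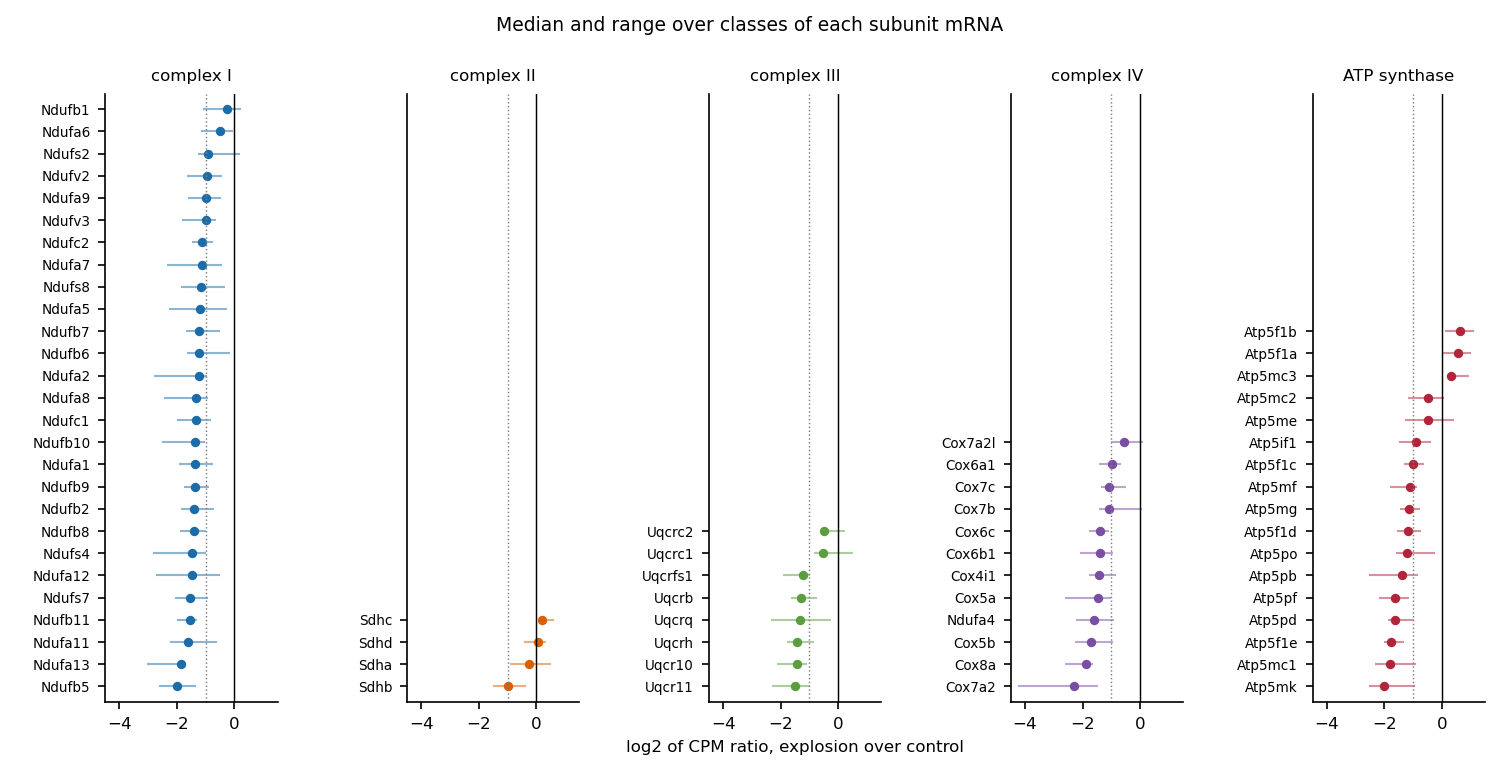
Points give the median over the compared classes of the log2 CPM ratio (explosion over control) of the 68 members that passed in at least 6 of them, and lines the lowest to the highest class; the solid line marks 0 and the dotted line a 2-fold lower value. Atp5f1b, Atp5f1a, Atp5mc3, Sdhc and Sdhd are the 5 members with a median above 0, and Cox7a2 has the lowest median.

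The rotor ring of ATP synthase is built of identical c subunits, and Atp5mc1, Atp5mc2 and Atp5mc3 encode the same mature protein with different import sequences. Their summed CPM was 1.43-fold lower by the median, but the 3 genes parted. Atp5mc1 stood at 212 to 637 CPM in control and 69.9 to 184 CPM after the explosion and was 3.53-fold lower by the median. Atp5mc2 was 1.38-fold lower, and Atp5mc3 was at 99.6 to 326 CPM in control and 172 to 377 CPM after the explosion, above control in 8 of 8 classes with intervals above 1 in 5. Relative to the median gene, Atp5mc3 was lower in 5 of 8 classes.

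Shares within the 3 genes do not depend on the totals. The share of Atp5mc1 was lower after the explosion in 13 of 13 classes, with intervals apart in 12, from a median of 36.1% to 15.9%. That of Atp5mc3 was higher in 13 of 13, with intervals apart in 12, from a median of 17.8% to 34.2%. Atp5mc2 was lower in 7 classes and higher in 6. In macrophage-like cells Atp5mc1 made up 40.9% (40.6% to 41.3%) of the c subunit UMIs in control and 18.6% (17.0% to 20.3%) after the explosion, and Atp5mc3 21.0% (20.7% to 21.2%) and 38.1% (36.1% to 40.2%). The intervals of type 2 alveolar-like cells, with 36 c subunit UMIs after the explosion, overlapped.

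The 250 bases before the start of these 3 genes are shown because the genes encode 1 mature protein and differed in direction; they come from RefSeq (GRCr8), with Atp5mc1 at chr10:81523346-81523595 on the minus strand, Atp5mc2 at chr7:135678219-135678468 on the minus strand and Atp5mc3 at chr3:79220665-79220914 on the minus strand. Capitals mark the E-box CACGTG in Atp5mc1 and Atp5mc3 and, in Atp5mc2, the NRF1-type motif GCATGCGC, found on both strands at overlapping positions.
Atp5mc1: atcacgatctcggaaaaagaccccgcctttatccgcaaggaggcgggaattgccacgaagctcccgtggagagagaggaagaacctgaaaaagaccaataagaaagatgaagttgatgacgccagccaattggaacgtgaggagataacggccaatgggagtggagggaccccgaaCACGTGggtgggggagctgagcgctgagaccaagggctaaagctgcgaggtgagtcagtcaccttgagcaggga
Atp5mc2: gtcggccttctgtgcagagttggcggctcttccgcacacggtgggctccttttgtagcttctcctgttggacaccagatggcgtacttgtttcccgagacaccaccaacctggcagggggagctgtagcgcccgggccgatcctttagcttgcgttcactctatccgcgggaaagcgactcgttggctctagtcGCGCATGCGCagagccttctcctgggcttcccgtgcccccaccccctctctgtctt
Atp5mc3: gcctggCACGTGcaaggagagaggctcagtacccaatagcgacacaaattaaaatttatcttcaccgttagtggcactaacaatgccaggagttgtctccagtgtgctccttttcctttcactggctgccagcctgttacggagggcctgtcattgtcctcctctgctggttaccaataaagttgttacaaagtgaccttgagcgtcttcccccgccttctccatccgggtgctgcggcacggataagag

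**Figure D4:**
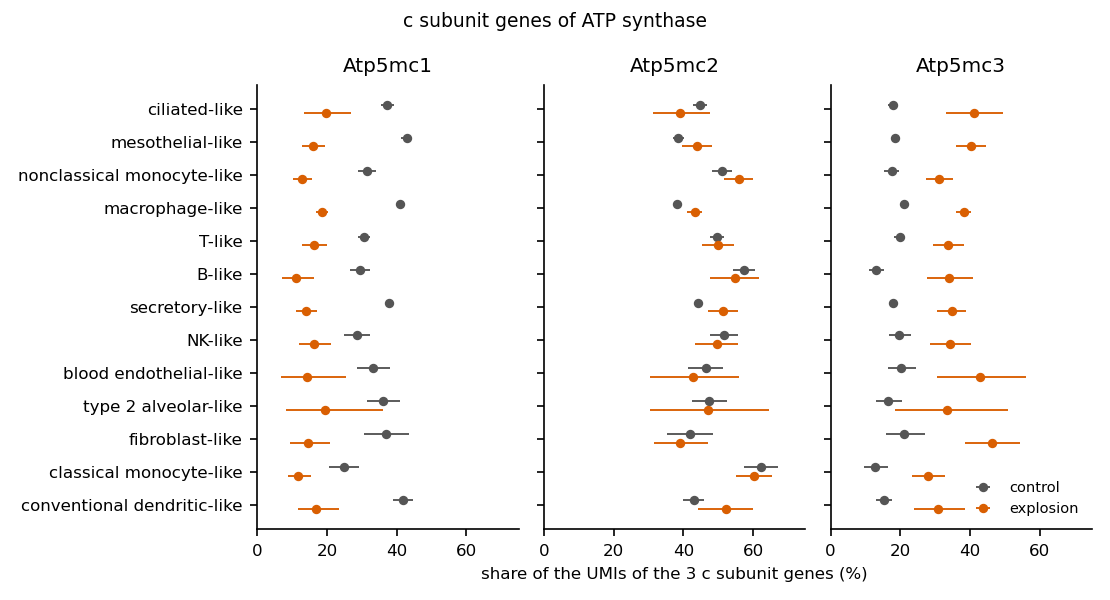
Points give the share (%) of Atp5mc1, Atp5mc2 and Atp5mc3 in the summed UMIs of the 3 genes in 13 cell classes, with exact 95% binomial intervals, in grey for control and orange for explosion. The Atp5mc1 share is lower and the Atp5mc3 share higher after the explosion in each class, and the Atp5mc2 shares overlap in most.

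Promoters were compared by letters. Of the 87 members, 76 had a window of 300 bases (250 before to 50 after the gene start) in the RefSeq table, and both strands were searched. The motif AAGATGGC, of the type bound by YY1, was in 16 of 76 windows (21.1%) and in 3.17% of all 33469 windows. The NRF1-type motif GCATGCGC was in 9 (11.8%, against 2.47%), the ETS-type motif CCGGAAGT in 8 (10.5%, against 3.81%) and the E-box CACGTG in 6 (7.89%, against 6.42%). In 11 of the 16 windows the YY1-type motif began after the start, on the given strand. Members with it had a median log2 ratio of -1.22 (13 that passed in at least 6 classes) and members without it -1.23 (47). Members with the NRF1-type motif had -0.75 (8) and those without -1.28 (52). A match is a match of letters and not a measured site. The YY1-type motif holds the letters ATG, and whether its matches after the start are start codons was not tested. The 33469 windows were not chosen by gene type, so these shares do not measure promoter sites alone.

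Stretches of 30 bases around the match are shown for 6 members of 4 complexes that differ in ratio, with the motif in capitals, 5′ to 3′ on the gene's strand in GRCr8. Atp5po lies at chr11:44657464-44657493 on the minus strand, Ndufa6 at chr7:115750284-115750313 on the minus strand, Ndufs4 at chr2:47794892-47794921 on the minus strand, Ndufs7 at chr7:10110476-10110505 on the minus strand, Sdhc at chr13:86098004-86098033 on the minus strand and Uqcrc1 at chr8:118468211-118468240 on the plus strand. Their median log2 ratios ran from -1.55 (Ndufs7) and -1.46 (Ndufs4) over -1.22 (Atp5po), -0.52 (Uqcrc1) and -0.50 (Ndufa6) to 0.20 (Sdhc).
Atp5po: ctgcccgggaaAAGATGGCcgcaccagcaa
Ndufa6: gcttccttagcAAGATGGCggccgcggcca
Ndufs4: ttgcccacaggAAGATGGCggcggtctcaa
Ndufs7: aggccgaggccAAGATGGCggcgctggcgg
Sdhc: ggccggaactcAAGATGGCtgcgctcttgc
Uqcrc1: acggaagttagAAGATGGCggcgtccgcag

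Lists of genes that build, feed or regulate the complexes were counted by the same rule, beside 12.8% of all gene-by-class values at least 2-fold lower and 28.1% at least 2-fold higher. Of 14 citric acid cycle enzymes, 12 passed in at least 1 class; 16 of their 54 values were at least 2-fold higher, a share near that of all values, and 1 at least 2-fold lower, with a median log2 ratio of 0.63. Ogdh, a subunit of the oxoglutarate dehydrogenase, had a median of 1.15 over 8 classes, Dlst of the same enzyme had 1.36 over 2, and Suclg1, a subunit of succinyl-CoA ligase, had the lowest median at -0.55. Of the assembly factors of complexes II and III, 4 of 10 passed: 10 of 11 values were at least 2-fold lower, with a median of -1.60, from -2.26 (Uqcc2) to -0.36 (Sdhaf2). Of those of complex IV, 11 of 21 passed, with 18 of 47 values at least 2-fold lower and 1 higher (median -0.72), from Cox19 at -1.62 to Coa5 at 0.83. Of those of complex I only 3 of 17 passed, with 3 of 7 values at least 2-fold lower (median -0.84), from Ndufaf3 at -2.07 to Ndufaf7 at -0.01. With the UMIs of all found factors summed, passed or not, the median log2 ratio was -0.99 for complexes II and III, -0.65 for complex IV and -0.15 for complex I.

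Of 5 assembly factors of ATP synthase only Fmc1 passed, in 1 class, at -1.15; all 5 summed had a median of -0.23. Of cytochrome c and coenzyme Q synthesis genes, 3 of 14 passed, from Cycs, cytochrome c itself, at -1.49 to Coq10b at 0.88, each in 1 class; all 14 summed had a median of -0.0016. Regulators of mitochondrial biogenesis had 11 values, of which 3 were at least 2-fold higher, a share near that of all values, and none 2-fold lower. Among them Yy1 had a median of -0.56 over 7 classes and Nrf1 one of 1.51 over 2.

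Depth differed between the libraries, so cells were set side by side within bands of depth. In 22 pairs of class and depth band with at least 20 cells of both libraries, complexes I, III and IV had intervals below 1 in 22 of 22 and ATP synthase in 21. The complex I ratio ranged from 0.240 to 0.702, and complex II had the highest ratio in 22 of 22; its interval held 1 in 19 pairs, lay below 1 in 2 and above 1 in 1. The bands did not match depth alike: the median UMIs of the libraries lay within 1.5 times of each other in 18 pairs (set after the data were seen), and in 4 pairs under 1000 UMIs they did not, B-like (749.5 and 320), T-like (813.5 and 415), nonclassical monocyte-like (778.5 and 333) and blood endothelial-like cells (717.5 and 425). In the 18 pairs complexes I, III and IV had intervals below 1 in 18 of 18 and ATP synthase in 17. In mesothelial-like cells under 1000 UMIs, complex I was at 6846 CPM in control (median 756 UMIs) and 2563 CPM in explosion cells (median 701 UMIs). In type 2 alveolar-like cells the complex I ratio was 0.338 (0.283 to 0.402) over all cells and 0.240 (0.195 to 0.292) under 1000 UMIs, where the medians were 598 and 632 UMIs.

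Within the control library, shallow cells were not alike in all classes. Ciliated-like control cells under 1000 UMIs had 3066 CPM of complex I and 924 CPM of Rn45s, and those with 4000 to 7999 UMIs had 7975 and 165 CPM. The ratio in ciliated-like cells under 1000 UMIs was 0.657 (0.530 to 0.816) for complex I and 0.932 (0.763 to 1.14) for ATP synthase. Macrophage-like control cells under 1000 UMIs had 4253 CPM of complex I, against 7234 CPM at 8000 UMIs or more, and 263 CPM of complex II, against 476 CPM. In secretory-like cells under 1000 UMIs complex II was at 422 CPM in control and 196 CPM in explosion cells, a ratio of 0.464 (0.274 to 0.762). At 1000 to 1999 UMIs the ratio was 0.610 (0.446 to 0.842). These were the 2 pairs with complex II intervals below 1. Scgb1a1 made up 16.9% of control and 29.7% of explosion UMIs in the shallower band and 27.8% and 41.1% in the deeper. The ratios by depth band were not recomputed without Scgb1a1.

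**Figure D5:**
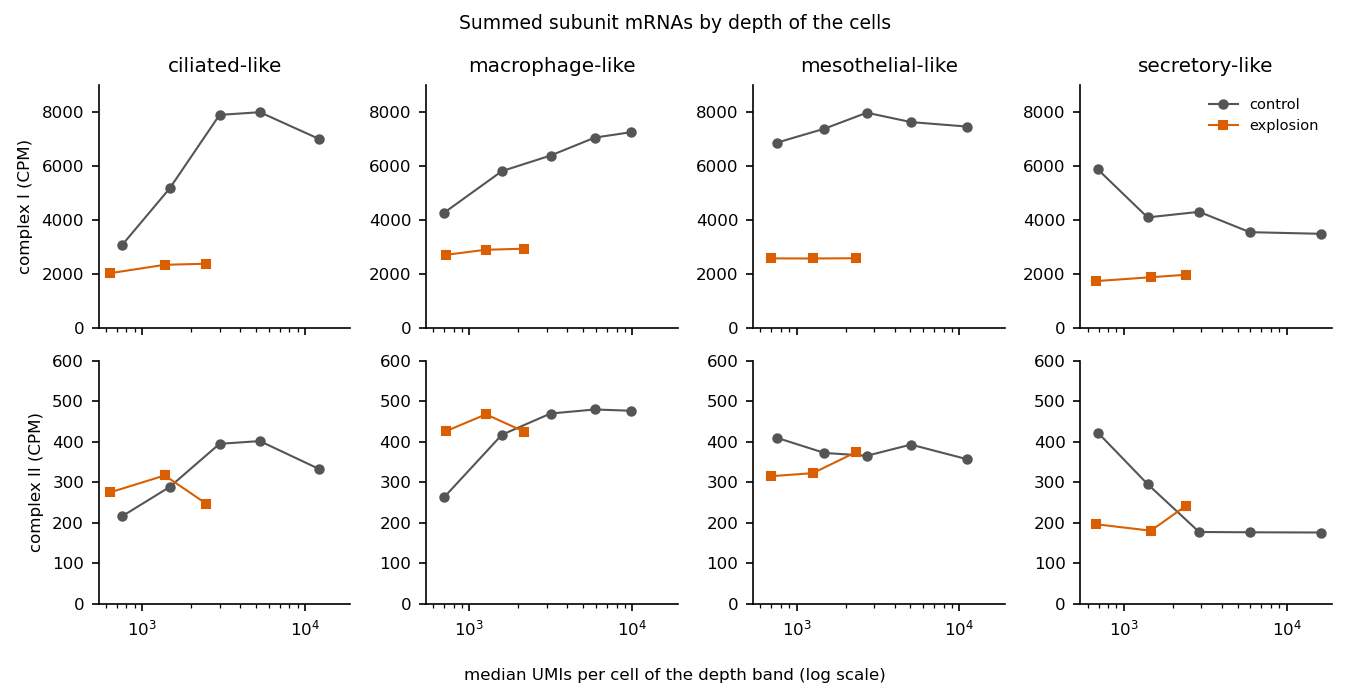
Summed CPM of complex I (upper row) and complex II (lower row) against the median UMIs per cell of each depth band (log axis), in 4 cell classes, with control in grey and explosion in orange. Complex I of the explosion cells lies at 1722 to 2921 CPM in the bands shown, below control at each depth. Complex II of the explosion cells is above control in macrophage-like cells under 1000 UMIs and below it in secretory-like cells under 2000 UMIs. The totals hold Scgb1a1, whose share differs between the libraries in secretory-like cells.

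Some clusters held cells of both libraries. In cluster 23 (NK-like), cluster 22 (conventional dendritic-like) and cluster 12 (blood endothelial-like) the complex I ratios were 0.619, 0.427 and 0.319 and the complex II ratios 1.09, 0.873 and 0.746. In cluster 16, ciliated-like, the ratios were 0.526 (0.476 to 0.582) for complex I and 1.03 for complex II, and its 168 control cells had 4197 CPM of complex I, against 7846 CPM in the 371 control cells of cluster 6. The 45 secretory-like control cells that lay in clusters led by explosion cells had 2222 CPM of complex I and 1281 CPM of Rn45s, against 3499 and 62.6 CPM in the other 3447.

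Some members share their place with other genes, and no source used here states whether counting used the strand. Of the 87 members, 18 overlap a protein-coding gene in the RefSeq GRCr8 annotation, among them Cox7a2 (Tmem30a), Ndufb5 (Mrpl47), Cox8a (Macrod1), Atp5mk (Taf5), Uqcr10 (Zmat5), Ndufb1 (Cpsf2) and Ndufs6 (Mrpl36), so their counts are less certain than those of Cox6b2, Sdhc and Atp5mc3, for which no overlapping protein-coding gene was listed.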

How the data were processed

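Lung was dissociated and 3′ single-cell libraries were made, per the labels' protocols. The authors deposited unnormalized whole-number UMI counts for each gene in each barcode. The matrix headers name cellranger 7.1.0, whereas the submitters' processing notes list Cell Ranger 6.1.1, bcl2fastq 2.20 and 2 builds (rn6, mRatBN7.2) without roles; annotation, intron and strand settings are not stated there.

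Barcodes needed 200 genes and no more than 25% UMIs from symbols that begin with mt-. None of the 13 subunits encoded by mitochondrial DNA was found under such a symbol, so this share, of mitochondrial rRNA, held no mRNA of them. Scrublet doublets were removed (1853 control, 597 explosion). Clustering used scanpy 1.11.5 with 2000 variable genes (members, ribosomal, mitochondrial, hemoglobin and immunoglobulin genes left out), 30 principal components, 15 neighbours, no integration, and Leiden resolution 1.5. That resolution was set after clusters were seen, because at 1 explosion ciliated-like cells merged with a secretory-like cluster. Naming a cluster required 3 detected markers. Clusters led by another class or by cycling genes stayed unnamed (404 control and 301 explosion cells), and classes under 50 cells in a library were not compared.

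UMIs were summed per library and class and given as CPM. Ratios carry exact conditional Poisson 95% intervals and shares exact Clopper-Pearson ones; both cover counting error only. The step was tested on simulated data. Named members were, per complex, those with the most control UMIs and the lowest and highest median ratio, all of complex II, the paralog sets, Atp5if1 and members 2-fold higher; of each list, the lowest and highest; others are named where a role is described. Alternatives in scaling, cell filters, thinning, doublets, clustering, thresholds and membership were tried. Members and lists were chosen with earlier results of these data known. Promoter letters and gene overlaps come from RefSeq tables of GRCr8.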

Additional observations from a re-analysis of the deposited data

Results flagged for a closer look

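Ndufa3, an accessory subunit of complex I, was higher in explosion NK-like cells (44 and 39 UMIs, ratio 1.86, interval 1.18 to 2.94) and lower in explosion macrophage-like cells (ratio 0.843, 0.716 to 0.988), so that the intervals lay on opposite sides of 1; the log2 ratios differed by 1.14. Sdha was higher in macrophage-like (ratio 1.20, 1.02 to 1.41) and lower in B-like cells (ratio 0.528, 0.262 to 0.973), a log2 difference of 1.19. These directions depend on the scale. Relative to the median gene of the class, Ndufa3 was lower in 4 of 5 classes and Sdha in 6 of 7. On that scale no interval of Ndufa3 or Sdha lay above the median gene. With 1 library per group, neither difference between classes was tested.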

How the results depend on the processing

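The summed complexes kept their direction under each of the 14 alternatives run. With Scgb1a1 left out of the totals, the median log2 ratio over classes was -1.35 for complex I and -0.98 for ATP synthase. Without ribosomal, mitochondrial rRNA, Rn45s and hemoglobin genes it was -1.38 for complex I, -1.49 for complex III, -1.54 for complex IV and -1.05 for ATP synthase. Relative to the median gene it was -1.72, -0.65, -1.82, -1.91 and -1.41 for complexes I to IV and ATP synthase. In cells with at least 500 UMIs (5580 explosion cells left out) it was -1.22 for complex IV and -0.82 for ATP synthase, and in cells thinned to 500 UMIs -1.20 for complex III, -1.20 for complex IV and -0.76 for ATP synthase. Without classes it was -1.25 for complex IV and -0.80 for ATP synthase. Over the 13 classes with at least 50 cells complex I was at -1.31. In clusters held by both libraries (added after the data were seen) complex I was at -1.33 and ATP synthase at -0.83. These medians were over another set of classes, those with at least 50 cells of each library in such clusters. Of the compared classes only NK-like, ciliated-like and macrophage-like cells entered. Macrophage-like cluster 27 held 126 control and 176 explosion cells. B-like, T-like, mesothelial-like, nonclassical monocyte-like and secretory-like cells did not enter. Blood endothelial-like, fibroblast-like, conventional dendritic-like and type 2 alveolar-like cells did, so the medians do not compare the same classes. The cause was not tested. The 355 values at least 2-fold lower became 597 of 907 over 13 classes, 48 of 71 without classes, 158 of 223 at a mean CPM of at least 200 and 46 of 560 at a fold of 4, by construction of those settings; 14 other settings gave counts within 1.5 times. Of 362 values for 26 named members, 7 moved by over 1.5-fold, 6 of them relative to the median gene, where Atp5f1a stood at -0.07 and Atp5f1b at -0.03. Sdha stood at 0.51 in the clusters held by both libraries, over that other set of classes, against -0.25 over the compared classes. Resolution 1, resolution 2 and kept doublets moved the median of no complex out of its interval. Nor did a limit of 10% on UMIs of symbols that begin with mt-, means over cells or Ndufa4 counted in complex I. That interval ran from the median of the lower ends to the median of the upper ends of the class counting intervals. It left out the spread between classes. No paired analysis was possible because each group had 1 library, so no library could be left out either. Depth limits the explosion library most: Cox7a2 in ciliated-like cells rests on 3 UMIs.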
